A study of Homo sapiens with 6 samples.

Results

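Insulin receptor substrates and insulin-like growth factor (IGF) receptors are described here as a group of 8 genes: the ligand IGF2, the receptors INSR, IGF1R and IGF2R, the substrates IRS1, IRS2 and IRS4, and the adaptor GRB10. They were found by gene symbol in the platform annotation, which gave them 13 of the 47321 probes of the array, and 8 of its 20045 named genes. The group was chosen by its members' values in the contrast of inhibitor with vehicle, in which IRS4 was already known to be present and lower. The values of the 8 genes in that contrast are therefore a description and carry no test.

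The series measured RNA on Illumina bead arrays in 6 samples labelled HCC1954, a breast carcinoma line that the labels call HER2 positive, HER2 being the receptor that ERBB2 encodes. Of these, 3 were given vehicle and 3 were given TBK1 inhibitor II, a compound against TBK1, a kinase of innate immunity, for 3 days in both groups. No dose was found in the labels. Nor do they say whether replicates were grown apart, so p-values reflect only the scatter of these 6 arrays, which may be technical.

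Ligand binding to INSR or IGF1R switches on the receptor's tyrosine kinase, which phosphorylates the substrate proteins of the IRS family. Phosphorylated substrates recruit PI3K, which leads to AKT and mTOR, and the adaptor GRB2, which leads to RAS and MAPK. IGF2R, by contrast, has no kinase and takes IGF2 into the cell for breakdown, and GRB10 binds the active receptors and restrains them. IRS1 and IRS2 are widely expressed, whereas IRS4 is found in few adult tissues and was first isolated from a human embryonic kidney line.

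Array quality and the label set limits on what follows. The median signal intensity per array was 98.5 to 138.1, with 18325 to 20741 of the 47321 probes detected (detection p under 0.05). Of 17 luminal epithelial markers, 6 were detected on all 6 arrays, among them KRT8, KRT18, EPCAM and CDH1, and 6 on none, among them KRT7, KRT19 and CLDN3. Of 12 genes of the ERBB2 region 9 were detected on all 6 arrays, ERBB2 included, and 2 on none, GRB7 and PNMT. Of 9 neural markers 4 were detected on all 6 arrays, NEFM, NEFL, NEFH and TUBB3, and 1 on none. Of 12 mesenchymal and fibroblast markers 6 were detected on all 6 arrays, VIM among them, and 4 on none. Of 11 basal epithelial markers, 6 of them with a probe, 1 was detected on all 6 arrays and 4 on none. The markers thus do not settle the label, and the samples are called by it only. The summed signal of the luminal list, each probe divided by its array's median, was 32.0 to 36.5 in vehicle and 36.6 to 38.2 with inhibitor. For the neural list it was 23.4 to 39.0 and 29.0 to 33.0, for the mesenchymal and fibroblast list 114 to 127 and 98.0 to 115, and for the leukocyte and endothelial list, of which 1 of 9 markers, CD68, was detected on all arrays, 14.04 to 14.56 and 15.15 to 15.96. These sums include probes that were not detected and so carry background signal. The part of these levels in the results below was not tested.

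After 3 days with the inhibitor, the normalized level of IRS4 was lower on every inhibitor array than on any vehicle array, on average by 2.59-fold, while the brightest probes of the other measured members shifted by at most 1.32-fold. IRS2, INSR, IGF2R and GRB10 had log2 differences of 0.40, 0.02, 0.22 and -0.21. IGF1R and IGF2 were not well above background in either group, and IRS1 reached it on 1 array of each. The 3 substrates thus differed in state, with IRS4 measured and lower, IRS2 measured and with overlapping groups, and IRS1 near the limit of detection.

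Of the 8 members, 5 passed the filter on dim probes, which asks for detection on at least 3 of the 6 arrays. A gene seen in 1 group alone could pass it through that group. Of these 5, 1 passed the threshold of the fit across all genes (limma adjusted p under 0.05), IRS4, beside 5.45% of the 11582 genes tested. Of all genes, 1.86% were lower with inhibitor (215) and 3.59% higher (416), a split that became 36 and 675 with median centring. Since the members were proposed from this contrast, nothing is read from their count. The call of IRS4 was made in 14 of 16 alternative settings. It was not made without inhibitor replicate 2 or without inhibitor replicate 3, where its log2 difference was -1.31 and -1.43. Only 2 genes in all passed in each of those settings. All settings reuse these arrays and the values that chose the gene, so their tally describes the processing and is no support. The median log2 difference was 0.02 over the 5 members and 0.03 over all genes tested. In this bulk RNA, fewer cells with a transcript and less of it per cell cannot be told apart.

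**Figure D1:**
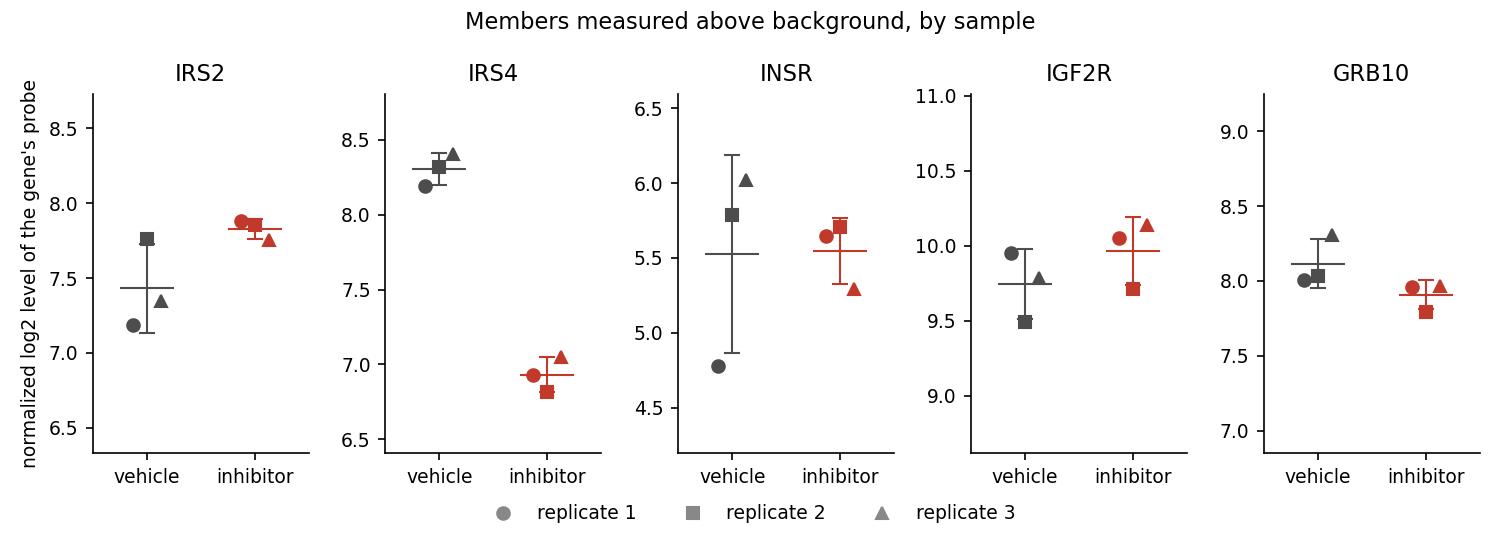
Normalized log2 level of the brightest kept probe of IRS2, IRS4, INSR, IGF2R and GRB10 on each array, with marker shape for the replicate number and bars for the mean and SD of the 3 samples of a group. Each panel spans the same range of log2 units around its own middle. The 3 inhibitor samples of IRS4 lie between 6.81 and 7.05, all below the vehicle samples at 8.19 to 8.40, while the groups of IRS2, INSR and IGF2R overlap.

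The ligand gene IGF2, a fetal growth factor that is imprinted, was not detected with any of its 3 probes on any of the 6 arrays. Its highest signal intensity was 134.5, on vehicle replicate 3, with a detection p of 0.19. The lowest detection p of the 3 probes was 0.10, on vehicle replicate 2. No fold is given for a gene below background in both groups. Of 12 genes of the IGF2 locus and its partners 6 were tested. H19, the noncoding neighbour of IGF2, and the imprinted genes DLK1, PEG3 and MEST, named here after their values were seen, were likewise detected on 0 arrays. The imprinted genes PLAGL1 and CDKN1C of the same list, also named after their values were seen, were detected on all 6.

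Among the receptors, INSR, the insulin receptor, had a dim probe, detected on 2 of 3 vehicle arrays and 3 of 3 inhibitor arrays. Its deposited signal intensities were 98.3, 123 and 188.9 in vehicle replicates 1, 2 and 3, and 132.6, 150.7 and 149.5 in inhibitor replicates 1, 2 and 3. After normalization the log2 levels were 4.78, 5.79 and 6.02 in vehicle and 5.64, 5.70 and 5.29 with inhibitor. Vehicle replicate 1, where the probe was not detected, lay lowest, and the inhibitor samples lay between it and the other vehicle samples. The log2 difference was 0.02 ± 0.30 (SE, n = 3 per group), and -0.37 without vehicle replicate 1. INSR therefore had no settled direction on these arrays.

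IGF1R, the receptor of IGF1 and IGF2 that drives growth, had 1 probe, which was detected on 0 of the 6 arrays. Its signal intensity was 86.2, 90.3 and 115.5 in vehicle and 89.2, 104.9 and 117.7 with inhibitor, with detection p-values of 0.52 to 0.97. These signals were those of the array background, which bounds what this probe could see and does not show that the transcript was missing.

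IGF2R, the receptor that clears IGF2 and also sorts lysosomal enzymes through mannose 6-phosphate, was detected on all 6 arrays. Its log2 levels were 9.95, 9.49 and 9.79 in vehicle and 10.05, 9.71 and 10.14 with inhibitor. The groups overlapped, since inhibitor replicate 2 lay below vehicle replicates 1 and 3. The log2 difference was 0.22 ± 0.19 (SE, n = 3 per group), and it was 0.10 without vehicle replicate 2, the lowest sample, and 0.35 without inhibitor replicate 2.

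IRS4, a docking protein with many tyrosines that bind PI3K when phosphorylated, was detected on all 6 arrays with a detection p of 0. The deposited signal intensities of its single probe, ILMN_1712774, were 275.1, 314.4 and 544 in vehicle replicates 1, 2 and 3 and 195, 222.2 and 277.5 in inhibitor replicates 1, 2 and 3. Before normalization the groups overlapped by a small margin, inhibitor replicate 3 lying above vehicle replicate 1, whose arrays had median intensities of 130.7 and 98.5. After background correction and quantile normalization the log2 levels were 8.19, 8.32 and 8.40 in vehicle and 6.93, 6.81 and 7.05 with inhibitor. The groups were then separate, with means of 8.30 ± 0.11 and 6.93 ± 0.12 (SD, n = 3 each).

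The log2 difference of IRS4 was -1.37 ± 0.15 (SE, n = 3 per group), the 11th lowest of the 11582 genes tested. Its rank from the lowest was 26 without vehicle replicate 3 and 24 with the deposited processed values. The authors' processed values were 8.62, 8.71 and 8.77 in vehicle and 7.86, 7.81 and 7.92 with inhibitor, a difference of -0.84. In those values, differences over the kept probes were smaller (slope 0.54 against those used here). With each array centred on its median instead, where the median of all genes rose to 0.24, IRS4 had -1.08. The direction was the same in all 16 alternative settings, and the size was smallest in the processed values.

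The fall could also be read within each array, with no normalization, as the ratio of the signal of IRS4 to that of another member detected on all 6 arrays. The level of such a ratio has no meaning of its own, since the probes differ in brightness, but its change between arrays shows unequal change of the 2 signals. These signals include the array background, which was not subtracted. Transcripts that changed by the same fold could therefore also give unequal signals. The ratio of IRS4 to IRS2 was 1.59, 1.31 and 1.73 in vehicle and 0.669, 0.622 and 0.719 with inhibitor. The ratio to IGF2R was 0.358, 0.509 and 0.429 in vehicle and 0.197, 0.213 and 0.182 with inhibitor. The ratio to GRB10 was 1.097, 1.150 and 1.057 in vehicle and 0.640, 0.641 and 0.648 with inhibitor. All 3 ratios were lower on every inhibitor array than on any vehicle array, and the ratio to GRB10 varied least within the groups. These ratios hold the same IRS4 values that chose the gene and add no independent evidence.

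**Figure D2:**
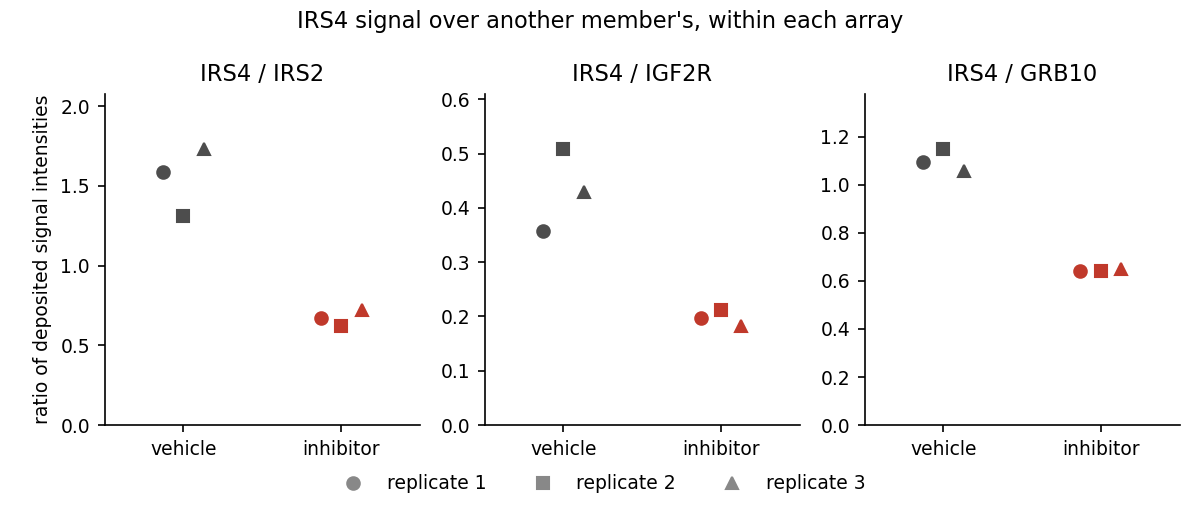
Ratio of the deposited signal intensity of IRS4 to that of IRS2, IGF2R and GRB10 within each array, with marker shape for the replicate number and axes that start at 0. In each panel the vehicle samples lie above the inhibitor samples, with a lowest vehicle value of 1.31, 0.358 and 1.06 against a highest inhibitor value of 0.719, 0.213 and 0.648.

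IRS2, a substrate through which insulin acts in liver and pancreatic islets, was detected on all 6 arrays. Its signal intensities were 173.4, 239.3 and 314 in vehicle and 291.6, 357.2 and 385.9 with inhibitor. The normalized log2 levels were 7.18, 7.76 and 7.35 in vehicle and 7.88, 7.85 and 7.75 with inhibitor. The inhibitor samples lay close together (SD 0.07) and the vehicle samples were spread (SD 0.30), with vehicle replicate 2 just above inhibitor replicate 3. The log2 difference was 0.40 ± 0.18 (SE, n = 3 per group), 0.56 without vehicle replicate 2 and 0.27 without vehicle replicate 1. It was above 0 in all 16 alternative settings, and IRS2 passed the threshold in 0 of them.

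IRS1, the first known substrate of the insulin receptor, had 1 probe near the limit of detection. Its signal intensities were 101.7, 106.4 and 168.3 in vehicle and 114.4, 118.5 and 139.1 with inhibitor, and only replicate 3 of each group passed a detection p of 0.05. Without the filter its log2 levels were 4.95, 4.996 and 5.60 in vehicle and 4.94, 4.82 and 5.01 with inhibitor. The groups overlapped, and the log2 difference of -0.26 ± 0.18 (SE, n = 3 per group) came with 1 high sample, vehicle replicate 3, the one vehicle array where the transcript was detected.

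The 2 substrates detected on all arrays, IRS4 and IRS2, are shown with the 250 bases before their annotated starts, since they differed in response and a reader may want their upstream sequence beside the values. The sequences are from RefSeq on GRCh38.p14, on the minus strand for both, written 5′ to 3′ along the gene. IRS4 lies at chrX:108736378-108736627 and IRS2 at chr13:109786584-109786833. Capitals mark matches on either strand to 3 of the motifs searched. One is the GC box (GGGCGG), known to be bound by the factor SP1. Another is the core of the insulin response element (CAAAACA), found here in its reverse complement, and the third is the E-box (CACGTG).
IRS4: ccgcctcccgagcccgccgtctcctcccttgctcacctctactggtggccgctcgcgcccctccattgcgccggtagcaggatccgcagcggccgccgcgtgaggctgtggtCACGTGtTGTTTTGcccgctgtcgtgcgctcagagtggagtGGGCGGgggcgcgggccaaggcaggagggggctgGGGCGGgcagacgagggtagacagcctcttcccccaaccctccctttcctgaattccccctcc
IRS2: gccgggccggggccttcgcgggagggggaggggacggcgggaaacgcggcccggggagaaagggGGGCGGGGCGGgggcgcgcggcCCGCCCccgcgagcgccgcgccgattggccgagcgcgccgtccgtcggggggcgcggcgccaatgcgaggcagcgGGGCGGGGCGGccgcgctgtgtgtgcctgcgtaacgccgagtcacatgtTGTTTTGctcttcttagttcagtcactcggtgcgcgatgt

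Both windows held 1 insulin response element core, a sequence known from genes that insulin represses and that FOXO factors can bind. It began 131 bases before the start of IRS4 and 40 bases before that of IRS2, and the other 5 members with a window in the table, IRS1, INSR, IGF1R, IGF2R and GRB10, held none. Of all 35116 windows of this length, 4.30% held it. In IRS4 it was preceded by an E-box, which IRS2 lacked and 6.35% of windows held. Among the other 5 members IGF2R held 3 E-boxes and the rest held none. GC boxes numbered 2 in IRS4 and 5 in IRS2, where 2 pairs shared a base, and 42.6% of windows held at least 1. Neither window held the FOXO site (GTAAACA), which 2.98% of all windows held. The half-site of the cAMP response element (TGACG) was also missing from both and present in 21.2% of all windows, and its full form (TGACGTCA) in 1.65%. The TATA box (TATAAA) was in 10.7% of all windows and in neither of these. The core of the interferon-stimulated response element, a pair of GAAA with 2 bases between, was in 3.02% and in neither of these. The window of IRS4 was 70.4% G and C and that of IRS2 76.4%, against a median of 58.0% over all windows. GRB10 was apart from the other members, with 30.4% and 2 matches to the TATA box before the start used in RefSeq. They lay at -167 and -159 bases from that start, the latter on the opposite strand. IGF2 was not among the windows matched. A match of letters is a description and not a bound site.

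GRB10, an adaptor that binds INSR and IGF1R and is itself stabilized by mTOR signalling, had 4 probes, of which 3 were kept. On the brightest, ILMN_1669617, the log2 levels were 8.005, 8.035 and 8.305 in vehicle and 7.96, 7.80 and 7.97 with inhibitor. The groups did not overlap, by a margin of a few hundredths, as was the case for 31.5% of all genes tested. The log2 difference was -0.21 ± 0.16 (SE, n = 3 per group), -0.11 without vehicle replicate 3. With each array centred on its median it turned to 0.07, which is still below the median of 0.24 that all genes had under that setting.

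The next probe of GRB10, ILMN_2340919, was detected on all 6 arrays and had a larger log2 difference of -0.49 ± 0.16 (SE, n = 3 per group). Its log2 levels were 6.62, 6.54 and 6.37 in vehicle and 6.20, 5.91 and 5.93 with inhibitor, again without overlap. The remaining kept probe, detected on 2 arrays of each group, had -0.28 ± 0.34 and overlapping groups. All 3 kept probes thus lay on the lower side, by unequal amounts, and the fourth, ILMN_1667771, was detected on 0 arrays. Which transcript form each probe reads was not resolved here.

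**Figure D3:**
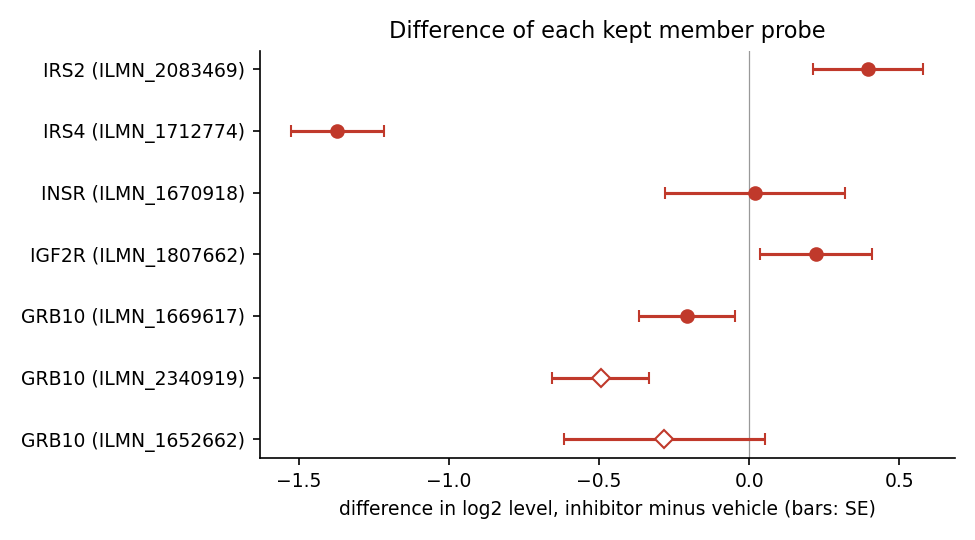
Difference in normalized log2 level between inhibitor and vehicle for the 7 kept probes of the members, with bars for the standard error of the fit (n = 3 per group). Filled circles stand for the gene and open diamonds are further probes of GRB10. IRS4 lies at -1.37, and the other probes lie between -0.49 and 0.40.

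The 5 genes whose levels followed IRS4 most closely over the 6 arrays were GSTO2, EYA3, ZDHHC22, PSIP1 and BST2, out of 581 genes detected on all arrays with an SD of at least 0.5. Their Pearson correlations with IRS4 were 0.994, 0.993, 0.993, 0.993 and 0.988. They encode a glutathione transferase (GSTO2), a transcriptional co-activator with phosphatase activity (EYA3), a palmitoyltransferase of the DHHC family (ZDHHC22), a chromatin-bound protein (PSIP1) and a protein that tethers budding viruses (BST2). Each was lower on every inhibitor array than on any vehicle array. The 6 points form 2 groups and share their arrays, so these correlations mainly restate a common fall and are given with no p. The fall was closest in size for GSTO2, with a log2 difference of -1.43 ± 0.16 (SE, n = 3 per group), and the others had -1.05 to -1.12.

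The question of what else moved in the pathway was put to 138 further genes in 10 lists by role, of which 123 had a probe in the annotation used and 97 were tested. The lists were drawn up by function, with earlier results of these data known. Of the 97 genes, 2 rose, 2 fell and 93 did not pass (limma adjusted p under 0.05 over all 11582 genes), which is 4.12% called beside 5.45% of all genes. Their median log2 difference was 0.04 beside 0.03. A share near that of all genes does not set the pathway apart. The count of 4 ranged from 0 to 15 over the alternatives, and it was 0 without any 1 of the 3 inhibitor samples and 1 without vehicle replicate 3.

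GSK3B, a kinase that AKT switches off and that restrains glycogen synthesis, rose by 0.88 ± 0.17 on the log2 scale (SE, n = 3 per group, limma adjusted p = 0.0288). Its log2 levels were 8.32, 8.33 and 8.17 in vehicle and 9.36, 8.93 and 9.18 with inhibitor, so that the groups were well apart. TSC1, which with TSC2 holds back mTOR, rose by 0.90 ± 0.18 (SE, n = 3 per group, limma adjusted p = 0.0298) on its brightest probe. Its log2 levels were 7.70, 7.95 and 7.87 in vehicle and 8.46, 8.87 and 8.89 with inhibitor. The probes of TSC1 disagreed, with 0.91 on another kept probe and -0.39 on the remaining one, and the call ended, at 0.47, where the mean of the 3 was used. These 2 were the genes that passed among 23 tested genes of AKT, GSK3 and mTOR, of which the median log2 difference was 0.06. The call of GSK3B ended without any 1 inhibitor sample, where its difference was 0.78 to 1.00, and without vehicle replicate 3, where it was 0.82. For TSC1 it ended without any 1 inhibitor sample (0.83 to 1.05) and without vehicle replicate 1 (0.83) or 3 (0.91).

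PCSK6, a proprotein convertase of the furin family, the enzymes known to cut the precursors of INSR and IGF1R, fell by 1.21 ± 0.20 on the log2 scale (SE, n = 3 per group, limma adjusted p = 0.0200). Its log2 levels were 6.25, 6.08 and 6.53 in vehicle and 4.75, 5.20 and 5.28 with inhibitor, where 2 of 3 arrays detected it. It was the one gene of 7 at the level of the receptor that passed. FURIN itself, named here after its value was seen, had -0.12 (limma adjusted p = 0.776) and overlapping groups. The size for PCSK6 depended on the processing, with -0.36 in the authors' processed values and -0.32 on its other kept probe. The call of PCSK6 ended without any 1 inhibitor sample, at -1.06 to -1.26. IGF2BP3, an oncofetal protein that binds IGF2 messenger RNA, fell by 0.73 ± 0.17 (SE, n = 3 per group, limma adjusted p = 0.0414). Its log2 levels were 9.69, 9.83 and 10.13 in vehicle and 9.21, 9.13 and 9.13 with inhibitor, again without overlap. Its relatives IGF2BP1 and IGF2BP2, named here after their values were seen, had -0.22 and 0.15 (limma adjusted p = 0.633 and 0.664). The call of IGF2BP3 ended with median centring, at -0.50, without any 1 inhibitor sample (-0.72 to -0.76), and without vehicle replicate 2 (-0.75) or 3 (-0.60).

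In the other 7 lists 0 of 61 tested genes passed in this limma fit, and 16 of them (26.2%) had an unadjusted p under 0.05, beside 24.4% of all genes tested. Of ligands and binding proteins 6 of 12 were tested, and the insulin gene INS and the growth factor gene IGF1 were detected on 1 and 0 arrays (both named after their values were seen). The binding proteins IGFBP5 and IGFBP2, which hold IGFs outside the cell, had log2 differences of 0.55 and -0.56 with limma adjusted p-values of 0.0930 and 0.100, and another probe of IGFBP5 had 0.59. Of 15 tested adaptors and docking proteins the smallest p-values were those of CRKL (0.59, limma adjusted p = 0.0904) and NCK1 (0.41, adjusted p = 0.173, with -0.13 on its other probe). SHC1, the other main substrate of these receptors, also named after its value was seen, had -0.20 (limma adjusted p = 0.494).

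Among 12 tested brakes at the receptor, the ubiquitin ligase CBL had 0.45 (limma adjusted p = 0.146) and SOCS2, a feedback inhibitor of growth hormone signalling, -0.52 (adjusted p = 0.148). Of 8 tested genes of PI3K and lipid phosphatases 7 lay above 0, with a median of 0.29, and none passed. INPP4B, a phosphatase of PI3K products, had 0.68 and PDPK1, the kinase that activates AKT, 0.53 (limma adjusted p = 0.126 and 0.123), with 0.00 on another probe of PDPK1. Of 7 tested genes of the RAS and MAPK arm, HRAS had -0.49 and MAP2K1 0.28 (limma adjusted p = 0.161 and 0.311).

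The FOXO factors, most of which insulin keeps out of the nucleus, were all 4 tested. FOXO3 had 0.45 on its brightest probe (limma adjusted p = 0.148) but -0.12 and -0.33 on its other kept probes. FOXO6, detected on 2 of 3 vehicle arrays and 3 of 3 inhibitor arrays, had 0.36 (limma adjusted p = 0.453). Of 9 tested genes of the metabolic list, PPARGC1A, a co-activator of mitochondrial genes, had 0.64 (limma adjusted p = 0.0701). The phosphatase subunit gene G6PC3 had -0.61 (limma adjusted p = 0.0840). In the authors' processed values the 2 had 0.17 and -0.40. Without the threshold reached, these values are given as measured, and they do not show that the genes were alike in both groups.

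**Figure D4:**
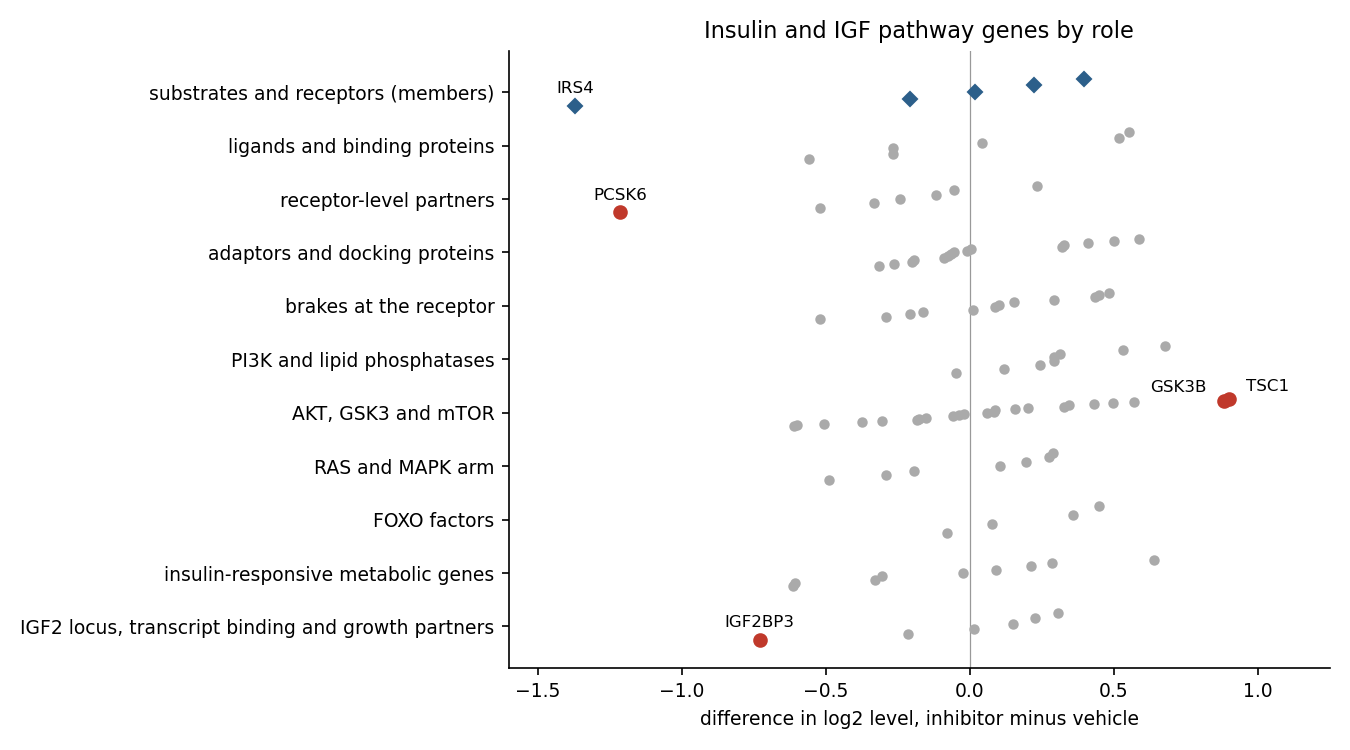
Difference in normalized log2 level between inhibitor and vehicle for the 97 tested pathway genes in 10 lists by role, with the 5 tested members as blue diamonds in the top row and small vertical offsets for legibility. Red points passed the limma threshold: TSC1 and GSK3B on the higher side at 0.90 and 0.88, PCSK6 and IGF2BP3 on the lower side at -1.21 and -0.73.

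Over the 16 alternative settings, shown in the plot of differences by setting, IRS4 ranged from -1.43 to -0.84, IRS2 from 0.24 to 0.69 and IGF2R from 0.10 to 0.43. GRB10 ranged from -0.33 to 0.07, with the 1 value above 0 under median centring. INSR ranged from -0.37 to 0.26 over 15 settings, with 7 of them on the other side of 0. In the remaining setting, a detection p under 0.01 on all 6 arrays, its probe was not kept.

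**Figure D5:**
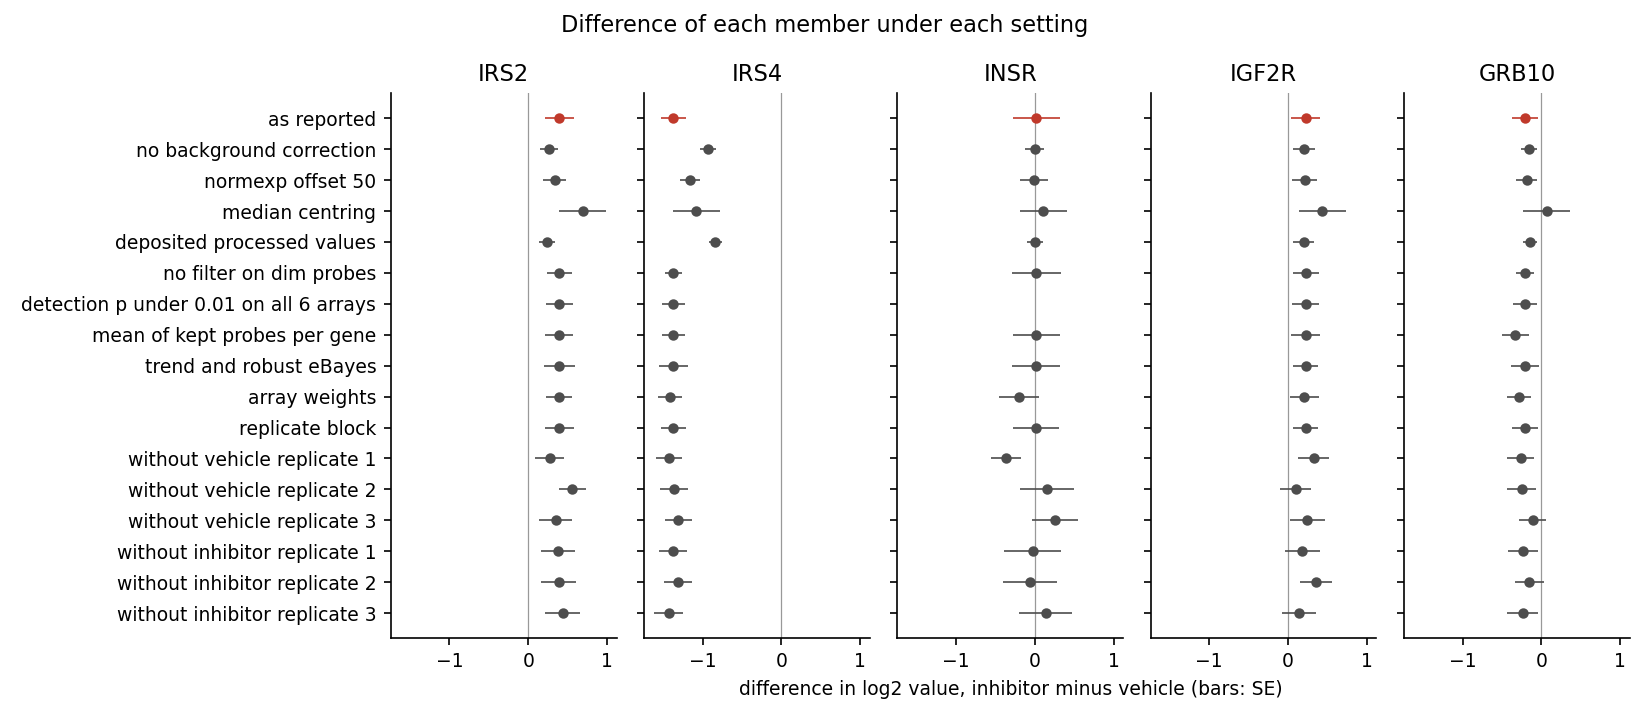
Difference in log2 value between inhibitor and vehicle for each tested member under the reported setting (red) and each alternative (grey), with bars for the standard error of that fit. IRS4 stays between -1.43 and -0.84, and IRS2 and IGF2R stay above 0. GRB10 lies below 0 except under median centring, and INSR lies on both sides of 0.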

How the data were processed

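RNA was measured in 6 samples labelled HCC1954. Per the labels' protocols, total RNA was labelled with biotin and hybridised to Illumina HumanHT-12 V4.0 arrays. Per the file headers, the deposited table of 47321 probes holds each array's signal intensity (linear, not normalized between arrays). Beside it stands a detection p-value, also deposited by the authors. The deposited processed values are on a log2-like scale with column medians of 7.16. The submitters' processing notes name lumi. Neither the log base nor the build of the array was found in the labels or headers.

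The intensities then went through limma 3.58.1 (R 4.3.3): normexp background correction from the detection p-values (offset 16), quantile normalization, log2. A probe was kept if its detection p lay below 0.05 on 3 or more arrays (19958 probes), so a gene could pass through 1 group alone. Normexp widens folds of dim probes, and quantile normalization removes a shift shared by most genes. Symbols came from the platform annotation, updated by gene ID to GRCh38.p14 for 30073 of 30112 named probes. The brightest kept probe stood for a gene (11582 genes). Groups were compared with lmFit and eBayes without covariates, and p-values were adjusted by Benjamini-Hochberg over all genes, threshold 0.05.

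The members and lists were chosen with earlier results of these data known. Genes named are the members, up to 4 genes past the threshold per list or 2 with the smallest p, and 5 most like IRS4. Precision is limited by 3 arrays per group. Alternatives changed background, normalization, filter, probe choice, variance model and samples.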

Additional observations from a re-analysis of the deposited data

How the results depend on the processing

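The 631 genes changed (416 higher, 215 lower) became 675 higher and 36 lower with median centring, which moved the median of all genes to 0.24. The number changed was 1357 without background correction, 1176 with an offset of 50, 1355 with the deposited processed values, 1240 with a trended and robust variance model, 970 with array weights and 40 with the replicate block. Without 1 sample it ranged from 2 to 422. The 4 pathway genes became 15, 12, 14, 11, 9 and 0 under the same 6 alternatives in that order, and 0 to 5 without 1 sample. The member count of 1 ranged from 0 to 1 and the log2 difference of IRS4 from -1.43 to -1.31 without 1 sample.

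INSR turned below 0 without background correction (-0.0010), with an offset of 50 (-0.010), with the processed values (-0.0017) and with array weights (-0.20), and ranged from -0.37 to 0.26 without 1 sample. GRB10 turned to 0.067 with median centring, and FOXO3 to -0.0012 with the mean of its probes. The causes were not tested.

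The replicate numbers share no stated origin. The deviations of same-numbered samples from their group means correlated at -0.14, 0.02 and 0.12 over probes, so they are not treated as pairs. The replicate block left IRS4 called and ended the calls of GSK3B, TSC1, PCSK6 and IGF2BP3. Of the 764 comparisons of a result with an alternative, 606 kept their direction and side of the threshold, or a count within 1.5 times. Many of these were counts for a list and direction that were 0 in both fits, so the tally does not measure stability. Signal over background limits IRS1, INSR, IGF1R and IGF2.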
